A study of Mus musculus with 23 samples.

Results

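In all, 10 genes of the unfolded protein response were followed in mouse liver, namely Ern1, Xbp1, Hspa5, Sdf2l1, Herpud1, Dnajb9, Atf4, Ddit3, Atf3 and Trib3. They were taken as the genes of the IRE1, PERK and ATF6 branches of the response, and each was read from the probe set with the highest mean log2 intensity among those whose annotation gives that symbol alone. Of the 10 genes, 8 had such a probe set, among 19147 named genes on the array. Dnajb9 and Trib3 had none and were not analysed here. The 8 genes had 10 probe sets in all, with a second for Xbp1 and for Ern1.

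The study set livers of P2ry13 knockout mice beside livers of WT mice of the same sex. P2ry13, called GPR86 in the sample labels, encodes a purine receptor for ADP. The groups were 6 female KO, 6 female WT, 6 male KO and 5 male WT mice, with 1 array of whole-liver RNA for each animal. Strain, age, diet, the design of the knockout allele and the use of littermates are stated in no source used here, so what the groups share beyond tissue is unknown. In whole tissue, fewer cells of a type and less RNA per cell cannot be told apart.

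The unfolded protein response adjusts the folding capacity of the endoplasmic reticulum to its load of new protein. Of its sensors in the membrane of the endoplasmic reticulum, IRE1 splices the mRNA of the transcription factor XBP1, PERK slows translation and thereby favours that of the transcription factor ATF4, and ATF6 is cleaved in the Golgi into a transcription factor. Hepatocytes secrete most plasma proteins and carry a dense rough endoplasmic reticulum, and the response also takes part in their lipid metabolism. Array probes of this kind report mRNA level. They do not report XBP1 splicing, phosphorylation or protein.

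P2ry13 read between 5.06 and 5.22 (median 5.17) log2 intensity in female KO livers and between 6.03 and 6.42 (median 6.34) in female WT livers. In male KO livers it read between 5.07 and 5.34 (median 5.16), against 6.34, 5.83, 5.80, 6.09 and 5.92 in the male WT livers. No KO array reached the lowest WT array of its sex. The log2 difference was -1.12 ± 0.09 (SE) in females and -0.80 ± 0.09 in males (limma, adjusted p = 6.07e-09 and 2.12e-05). With a plain analysis of variance in place of limma's moderated test the male difference no longer passed (adjusted p = 0.187 after Benjamini-Hochberg). Array medians lay between 19.5 and 21.1 intensity units, and any pair of arrays correlated at 0.983 to 0.995 over all probe sets. No detection calls were used here. The 4 Y-linked probe sets read between 2.53 and 3.69 log2 on female arrays and Xist between 4.14 and 5.22 on male arrays, which shows the signal that probe sets give where their transcript is lacking. Ern1 and Atf3 read between 4.63 and 5.33 on all arrays, and whether they stood above background was not tested. Of the genes named further on, Pmaip1 on all arrays and Asns, Mthfd2, Vldlr and Derl3 on part of the arrays also read no higher than Xist did on male arrays.

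**Figure D1:**
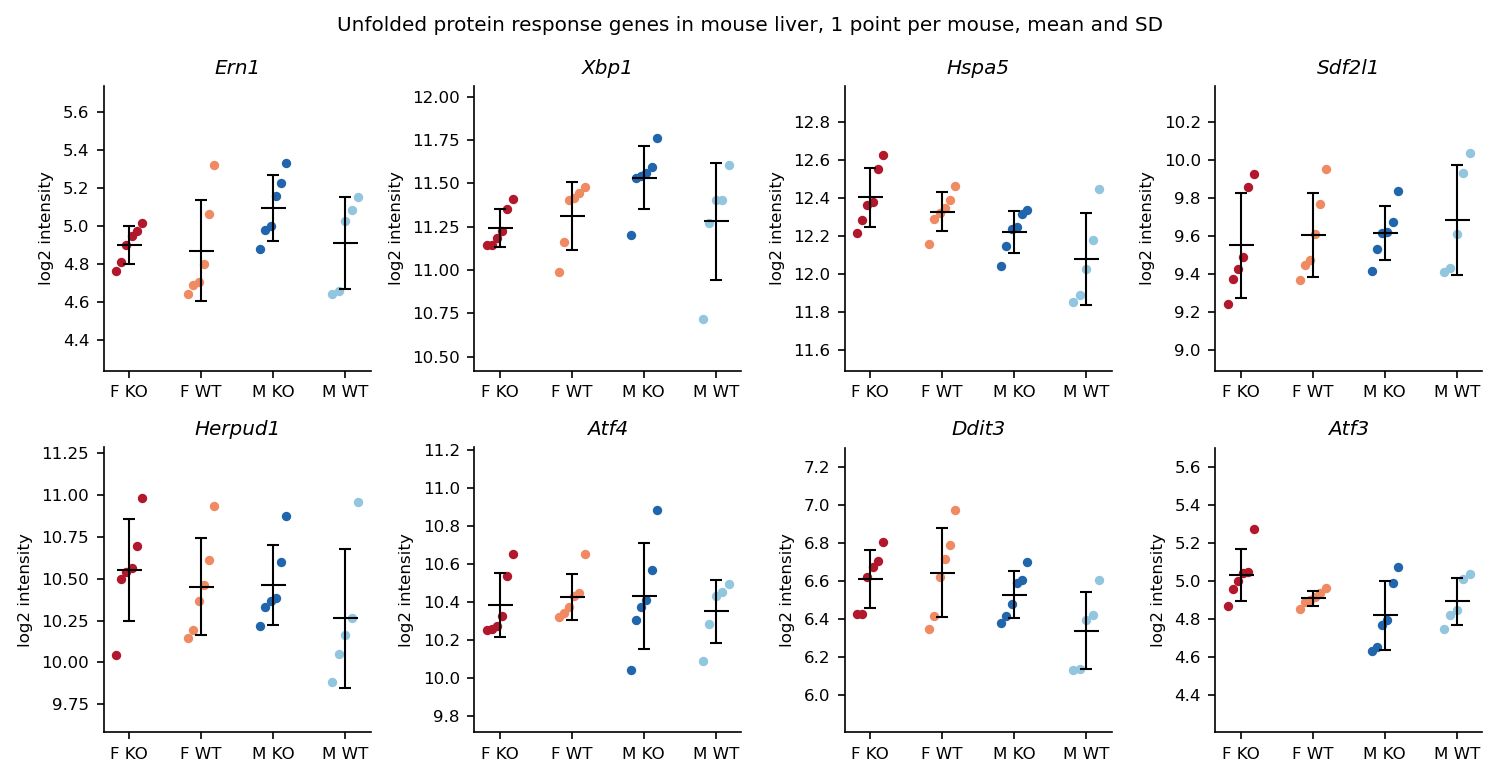
Log2 intensity of the brightest probe set of each of the 8 measured genes, with 1 point for each mouse and bars for the mean and SD of the group (F female, M male; 6 mice in each group, 5 in male WT). The spans of KO and WT points overlap in every panel, and Hspa5 points lie higher in females (group means 12.40 and 12.33) than in males (12.22 and 12.08).

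Ern1, which encodes the sensor IRE1, averaged 4.90 ± 0.10 (SD) log2 in female KO and 4.87 ± 0.27 in female WT livers (n = 6 each). It averaged 5.09 ± 0.17 in male KO and 4.91 ± 0.24 in male WT livers (n = 6 and 5). The KO minus WT difference was 0.03 ± 0.11 (SE) in females and 0.18 ± 0.12 in males, and neither passed (limma, adjusted p = 0.990 and 0.847). A second Ern1 probe set read the other way, with differences of -0.10 in females and -0.07 in males that did not pass either.

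Xbp1, the target of IRE1 and a transcription factor for chaperone and degradation genes, read between 11.15 and 11.41 (median 11.20) log2 in female KO livers and between 10.99 and 11.48 (median 11.41) in female WT livers. In male KO livers it read between 11.20 and 11.76 (median 11.55), against 11.60, 11.27, 11.40, 10.72 and 11.40 in male WT livers. Male WT replicate 5 was the lowest of all 23 arrays, and 1 male KO array lay above all male WT arrays. The group means ran in the order male KO (11.53), female WT (11.31), male WT (11.28) and female KO (11.24). The KO minus WT difference was -0.07 ± 0.11 (SE) in females (limma, adjusted p = 0.962). In males it was 0.25 ± 0.12 (95% interval 0.01 to 0.50), with an unadjusted p of 0.0447 and an adjusted p of 0.800 in limma. The difference between the female and the male effect was -0.32 ± 0.17 and did not pass (limma, adjusted p = 0.969). The second Xbp1 probe set gave -0.18 in females and 0.32 in males, and the difference of these effects of -0.50 had an unadjusted p of 0.0118 and an adjusted p of 0.962 (limma).

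Hspa5 encodes BiP, the main chaperone of the endoplasmic reticulum lumen, which also holds the sensors inactive. It is among the genes in which the endoplasmic reticulum stress element was defined, a promoter motif through which ATF6 and XBP1 act. The motif reads CCAAT, any 9 bases, then CCACG. Its only match in the Hspa5 promoter, on either strand, begins 65 bases before the annotated start and is set in capitals in the 300 bases from 250 before to 50 after that start (RefSeq, build GRCm38.p6).
Hspa5 chr2:34771840-34772139, plus strand: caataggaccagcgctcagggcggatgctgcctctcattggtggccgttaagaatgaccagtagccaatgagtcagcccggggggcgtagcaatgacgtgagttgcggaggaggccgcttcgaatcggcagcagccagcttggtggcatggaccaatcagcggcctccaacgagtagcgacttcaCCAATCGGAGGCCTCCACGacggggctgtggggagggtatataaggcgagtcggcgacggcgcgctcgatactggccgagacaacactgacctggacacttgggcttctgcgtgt

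The same motif was found in 39 of 32851 promoters of this length, or 0.119%, and in 1 of the 10 genes. The unfolded protein response element TGACGTGG, to which XBP1 binds, was in 0.676% of promoters and in 0 of the 10, which says only that these letters are not in this window. The ATF4 element TGATGNAAN was in 3.95% of promoters and in those of Atf3, Herpud1 and Trib3. Both strands were searched for each motif. A match is a description of the letters and does not show that a factor binds there.

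Hspa5 read between 12.22 and 12.63 (median 12.37) log2 in female KO livers and between 12.16 and 12.47 (median 12.34) in female WT livers. In male KO livers it read between 12.04 and 12.34 (median 12.24), against 12.03, 11.85, 12.18, 11.89 and 12.45 in male WT livers. The 3 lowest arrays of the series were male WT, while male WT replicate 6 exceeded all but 3 of the female arrays. KO minus WT was 0.07 ± 0.09 (SE) in females and 0.14 ± 0.09 in males, and neither passed (limma, adjusted p = 0.943 and 0.856). The 95% intervals of these log2 differences were -0.11 to 0.26 and -0.05 to 0.34.

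Sdf2l1 encodes a lumenal partner of BiP that is induced with it. It averaged 9.55 ± 0.28 (SD) log2 in female KO and 9.60 ± 0.22 in female WT livers, with 9.62 ± 0.14 in male KO and 9.68 ± 0.29 in male WT livers. Its KO minus WT differences of -0.05 ± 0.12 (SE) in females and -0.07 ± 0.13 in males did not pass (limma, adjusted p = 0.980 and 0.968).

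Herpud1 encodes a membrane protein that helps hand misfolded proteins to the degradation machinery. It read between 10.04 and 10.98 (median 10.55) log2 in female KO livers and between 10.15 and 10.93 (median 10.41) in female WT livers. In male KO livers it read between 10.22 and 10.87 (median 10.38), against 9.88, 10.05, 10.16, 10.27 and 10.96 in male WT livers. The spans of all groups overlapped widely, and Herpud1 had the widest intervals of the 8 genes. KO minus WT was 0.10 ± 0.16 (SE, 95% interval -0.23 to 0.43) in females and 0.20 ± 0.17 (-0.14 to 0.54) in males (limma, adjusted p = 0.962 and 0.898).

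Atf4, the transcription factor of the PERK branch, averaged 10.39 ± 0.17 (SD) log2 in female KO and 10.43 ± 0.12 in female WT livers. It averaged 10.43 ± 0.28 in male KO and 10.35 ± 0.17 in male WT livers. The 4 group means lay within 0.08 of each other, less than the SD of any group. Ddit3 encodes CHOP, which ATF4 induces and which promotes cell death under lasting stress. It averaged 6.61 ± 0.15 in female KO and 6.64 ± 0.24 in female WT livers, with 6.53 ± 0.12 in male KO and 6.34 ± 0.20 in male WT livers. Its KO minus WT difference in males was 0.19 ± 0.11 (SE) and did not pass (limma, adjusted p = 0.825). Atf3, a stress-induced repressor downstream of ATF4, averaged 5.03 ± 0.14 in female KO and 4.91 ± 0.04 in female WT livers, with 4.82 ± 0.18 in male KO and 4.89 ± 0.12 in male WT livers. Its difference was 0.12 ± 0.08 in females, where 4 of 6 KO arrays lay above all WT arrays, and -0.07 ± 0.08 in males (limma, adjusted p = 0.890 and 0.933). The ATF4 elements of the Atf3 and Herpud1 promoters are in capitals with 25 bases on each side, to show how they vary around the shared core. Both lie on the strand opposite to the gene.
Atf3 chr1:191183411-191183469, minus strand: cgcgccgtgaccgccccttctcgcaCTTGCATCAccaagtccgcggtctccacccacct
Herpud1 chr8:94386291-94386349, plus strand: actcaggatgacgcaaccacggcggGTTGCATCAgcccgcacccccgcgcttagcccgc

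Knockout of P2ry13 moved none of the 8 genes past the threshold in either sex. In females 0 of 8 passed (limma, adjusted p under 0.05), where 0.0547% of all probe sets did, and 0 had an unadjusted p under 0.05. Of the 8 differences, 4 were positive, where 50.6% of all named genes were. Their median was -0.0018 log2 against 0.0014 over the brightest probe set of every named gene. In males 0 of 8 passed, where 0.0313% of all probe sets did, and 1, Xbp1, had an unadjusted p under 0.05. There 6 of 8 differences were positive, beside 47.1% of all named genes, with a median of 0.16 against -0.0073 over all named genes. With both sexes averaged 0 of 8 passed, beside 0.0808% of all probe sets. There 7 differences were positive, beside 48.2% of all named genes, with a median of 0.08 against -0.0033. For the difference of the knockout effects between females and males 0 of 8 passed, beside 0.0104% of all probe sets. The 95% intervals of the brightest probe sets reach 1.34-fold at most in females, 1.45-fold in males and 1.31-fold in the average. Those of the second Xbp1 probe set reach further, to 1.35-fold lower in females and to a log2 difference of 0.59 in males. With so few probe sets passing in the whole series, the counts of 0 are near the background.

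**Figure D2:**
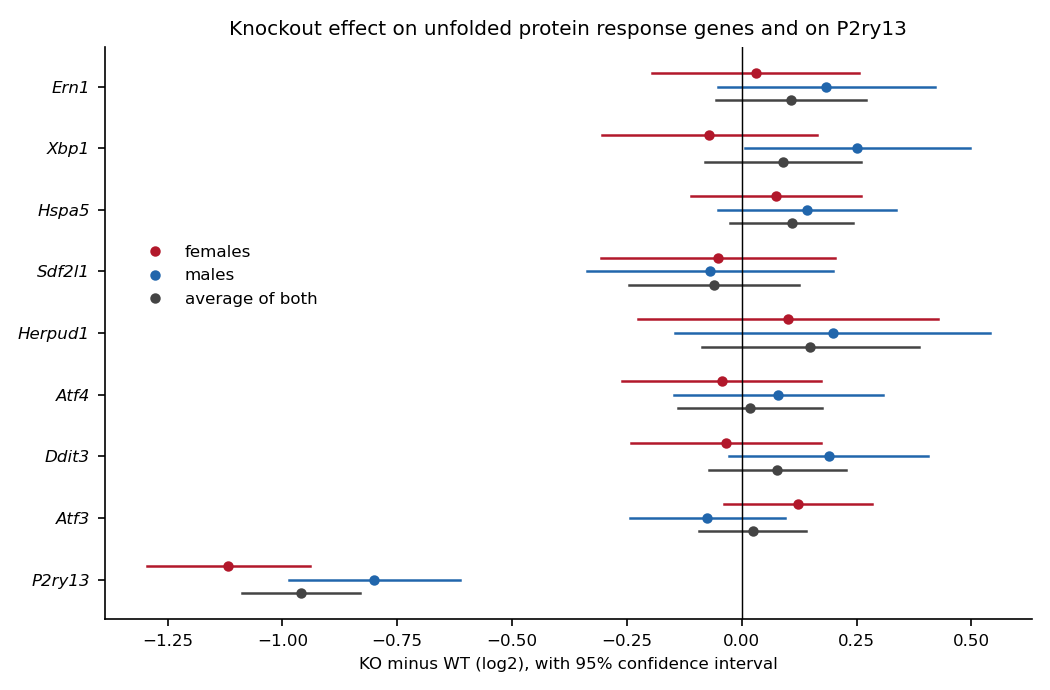
KO minus WT difference in log2 intensity of the 8 genes and of P2ry13, in females, in males and averaged over both, with 95% confidence intervals from limma. Intervals of the 8 genes span 0 except that of Xbp1 in males, which starts at 0.01, while P2ry13 lies at -1.12 in females and -0.80 in males.

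Ppm1l encodes a phosphatase of the endoplasmic reticulum membrane and is the neighbour of P2ry13 that led to the choice of these genes. Its brightest probe set averaged 6.89 ± 0.22 (SD) log2 in female KO and 6.94 ± 0.17 in female WT livers, with 6.86 ± 0.35 in male KO and 6.90 ± 0.09 in male WT livers. Its other probe sets disagreed with it. One averaged 6.75 ± 0.19 in female KO and 6.08 ± 0.05 in female WT livers, with 6.79 ± 0.20 in male KO and 6.22 ± 0.25 in male WT livers, and passed in both sexes (0.66 ± 0.10 SE in females and 0.58 ± 0.11 in males, limma, adjusted p = 0.0014 and 0.0303). The remaining one gave 0.26 and 0.27 and did not pass. Whether the Ppm1l signal bears on the 8 genes was not tested.

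Females and males differed in 1 of the 8 genes. Hspa5 averaged 12.37 log2 in females (n = 12) and 12.15 in males (n = 11), a difference of 0.22 ± 0.07 (SE, 95% interval 0.08 to 0.35), or 1.16-fold higher in females (limma, adjusted p = 0.0309). Of the 12 female arrays 3 lay above every male array. This 1 of 8 stands beside 13.6% of the 19147 named genes that passed in either direction, 8.25% higher and 5.38% lower in females, and 10.5% of all probe sets, so the count is close to the background. Within genotypes the Hspa5 difference was 0.18 ± 0.09 in KO mice and 0.25 ± 0.09 in WT mice, and neither passed alone (limma, adjusted p = 0.318 and 0.152). The call was lost with quantile normalization (0.18, adjusted p = 0.0809) and in 8 of 23 fits that left out 1 array, and the difference was positive in all of them.

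Ddit3 gave a difference of 0.19 ± 0.07 (SE) log2 in females minus males and did not pass (limma, adjusted p = 0.0918, unadjusted p = 0.0128). It passed without female WT replicate 1 (0.22, adjusted p = 0.0432) or without male WT replicate 6 (0.23, adjusted p = 0.0466). Xbp1 was -0.13 ± 0.08 in females relative to males and its second probe set -0.25 ± 0.09 (adjusted p = 0.383 and 0.0902). The sexes differed by 0.11 ± 0.06 for Atf3, 0.14 ± 0.12 for Herpud1, 0.01 ± 0.08 for Atf4, -0.07 ± 0.09 for Sdf2l1 and -0.12 ± 0.08 for Ern1, none of which passed. The second Ern1 probe set stood at -0.16 ± 0.06 (adjusted p = 0.0822). Over the 8 genes the median sex difference was 0.06, against -0.01 over all named genes.

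A further 7 wider lists of the response, with 130 genes of which 115 had a probe set, were read in the same way. They held sensors and regulators, chaperones and folding enzymes, genes of degradation, genes of translocation and signal peptide processing, ATF4 and CHOP targets, genes of the death arm, and mRNAs reported to be cut by IRE1. In KO minus WT 0 of 115 passed in females, in males and in the average (limma), beside 0.0547%, 0.0313% and 0.0808% of all probe sets. At an unadjusted p under 0.05 stood 11 of 115 genes in females, 3 in males and 13 in the average, where 6.15%, 6.01% and 7.06% of all named genes did. The median difference was 0.02 log2 in females and 0.03 in males, against 0.0014 and -0.0073 over all named genes. Of the 115 differences 70 were positive in females and 73 in males, beside 50.6% and 47.1% of all named genes. In the difference of knockout effects 0 of 115 passed, beside 0.0104% of all probe sets, and 5 had an unadjusted p under 0.05, beside 5.12% of all named genes. Eif2ak3, which encodes the sensor PERK, gave 0.31 ± 0.14 (SE) in females and 0.04 ± 0.15 in males (adjusted p = 0.848 and 0.985). The sensor gene Atf6 gave 0.15 ± 0.09 and 0.09 ± 0.09 (adjusted p = 0.883 and 0.917). Syvn1, the ubiquitin ligase of the degradation complex and a gene with an endoplasmic reticulum stress element, gave 0.30 ± 0.14 in females (adjusted p = 0.850). Canx, a lectin chaperone, gave 0.17 ± 0.07 in females (adjusted p = 0.836). Only some of the genes picked by smallest p are printed here. In males Wars of the ATF4 and CHOP targets gave 0.32 ± 0.10 (limma, adjusted p = 0.633). Creb3l2 of the sensors and regulators gave 0.27 ± 0.11 in males (limma, adjusted p = 0.737). Other genes picked by the same rule fell, and none passed. Among them were Pdia6 (-0.12 ± 0.06 in the average), Casp12 (-0.17 ± 0.10 in females) and Sec61g (-0.14 ± 0.08 in males).

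Asns, the asparagine synthetase that ATF4 induces when amino acids are short, had the smallest p of the wider lists in males. In female KO livers it read between 3.91 and 4.44 (median 4.22) log2 and in female WT livers between 3.94 and 4.77 (median 4.45). It read between 5.05 and 6.10 (median 5.68) in male KO livers, against 5.31, 6.59, 6.76, 7.41 and 7.50 in male WT livers. In males 4 of 5 WT arrays lay above all KO arrays, and replicate 2 lay within them. The KO minus WT difference was -0.20 ± 0.24 (SE) in females (limma, adjusted p = 0.945). In males it was -1.06 ± 0.25 and did not pass (limma, adjusted p = 0.278). Without male WT replicate 2, the array that lay within the KO arrays, it was -1.41 and passed (limma, adjusted p = 0.000431). That was the only 1 of 23 leave-outs to pass. Over all of them the male difference ranged from -1.41 to -0.86 (limma, adjusted p up to 0.688), and it passed in 0 of 8 other settings. The test of the female against the male effect did not pass (0.86 ± 0.35, limma, adjusted p = 0.962). Female Asns readings were no higher than those of Xist on male arrays (4.14 to 5.22). A fall in female KO livers might therefore not be seen, which limits the female difference and this test. Vldlr, the very low density lipoprotein receptor, gave 0.50 ± 0.12 in females and -0.04 ± 0.13 in males (limma, adjusted p = 0.257 and 0.983).

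Between the sexes 27 of the 115 genes passed (23.5%), with 14 higher and 13 lower in females. Of all named genes 13.6% passed (8.25% higher and 5.38% lower). The wider lists and all named genes were not matched for intensity, here or in the counts by list below. Whether the larger share in the lists goes beyond what their intensity would give was therefore not tested. Of the 33 measured ATF4 and CHOP targets 4 rose and 4 fell in females relative to males. Asns was lower in females (-1.87 ± 0.17 log2, SE, limma, adjusted p = 9.01e-09), and all 12 female arrays lay below all 11 male arrays. Its female readings of 3.91 to 4.77 were not shown to lie above background, so no fold is given. Vldlr was higher in females (1.01 ± 0.09, adjusted p = 1.62e-09), again with no overlap, and its second probe set gave 0.78. Mthfd2, a mitochondrial enzyme of one-carbon metabolism, was lower (-0.57 ± 0.09, adjusted p = 3.47e-05), and 6 of 12 female arrays lay below all males. Slc3a2, the heavy chain of an amino acid transporter, was higher by 0.28 ± 0.05 on its brightest probe set and by 0.08 on the other, which did not pass. Cebpg, a dimer partner of ATF4, was higher by 0.21 ± 0.05 on its brightest probe set, while its other probe set gave -0.01. Mars, the methionyl-tRNA synthetase, was lower (-0.21 ± 0.05), and its other probe set gave -0.11 and did not pass. The remaining 2 calls, named after their values were seen, were Atf5 (0.31 ± 0.08) and Psph (-0.23 ± 0.07). The ATF4 element of the Asns promoter is shown in capitals with 25 bases on each side, since Asns held the largest sex difference among the genes of these lists.
Asns chr6:7693199-7693257, minus strand: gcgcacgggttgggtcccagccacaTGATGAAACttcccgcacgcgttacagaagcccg

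**Figure D3:**
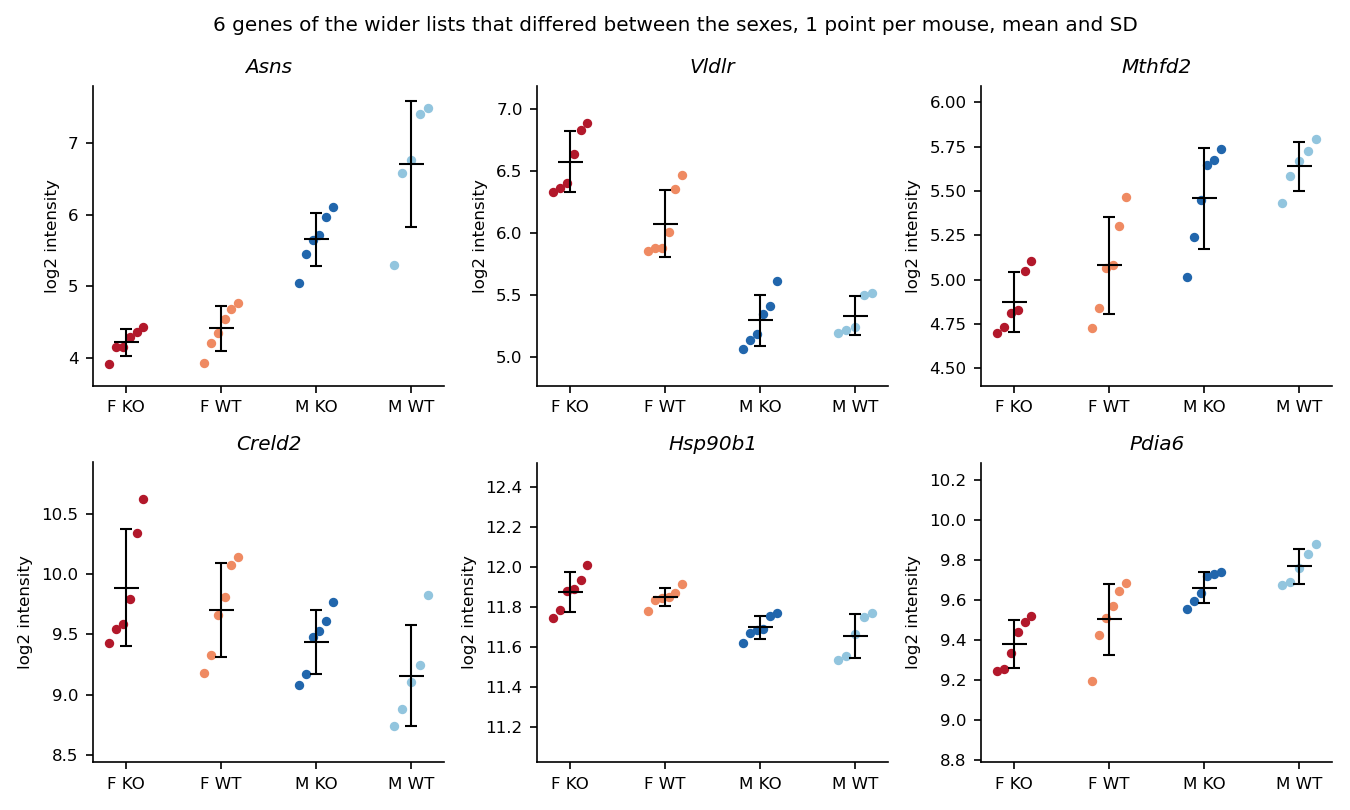
Log2 intensity of 6 genes of the wider lists that differed between the sexes, with 1 point for each mouse and bars for the mean and SD (F female, M male; 6 mice in each group, 5 in male WT). Female and male points do not overlap for Asns and Vldlr and overlap for Mthfd2, Creld2, Hsp90b1 and Pdia6; the male WT group of Asns holds 1 mouse at 5.31 and 4 between 6.59 and 7.50.

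The lists that follow stand beside 8.25% of all named genes higher and 5.38% lower in females. Among 16 measured chaperones and folding enzymes 3 were higher and 1 was lower in females. Creld2, a secretory-pathway protein induced by endoplasmic reticulum stress, was higher by 0.50 ± 0.14 (SE) log2 (limma, adjusted p = 0.0250). Hsp90b1, the lumenal chaperone GRP94, was higher by 0.19 ± 0.04 (adjusted p = 0.00497), with 11 of 12 female arrays above all male arrays. Dnajc10, a disulfide reductase, was higher by 0.19 ± 0.04 (adjusted p = 0.00481). Pdia6, a protein disulfide isomerase, was lower (-0.27 ± 0.06, adjusted p = 0.00109), with 9 of 12 female arrays below all males. Of 15 degradation genes 0 were higher and 2 were lower, Derl3 (-0.33 ± 0.10) of the retrotranslocation machinery and Edem2 (-0.17 ± 0.05), which takes part in mannose trimming. Of 21 genes of translocation and signal peptide processing 0 were higher and 4 were lower, with a list median of -0.05. They were the translocon subunits Sec61b (-0.31 ± 0.07) and Sec61g (-0.27 ± 0.05), the associated Ssr4 (-0.22 ± 0.06) and Sec63 (-0.18 ± 0.05).

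The endoplasmic reticulum stress element was present in the promoters of chaperone and degradation genes that moved in opposite directions between the sexes. Creld2 and Hsp90b1, which were higher in females, and Pdia6 and Derl3, which were lower, all hold it. It was found in 9 of the 99 genes of the wider lists that the promoter table holds, beside 37 of all 27025 genes there. The others were Calr, Canx, Dnajc3, Ero1b and Syvn1, none of which passed where measured. The unfolded protein response element was in 3 of the same 99 genes and the ATF4 element in 12. The lists were made up of genes of the response, and these counts were not tested. The matches of Creld2, Hsp90b1, Pdia6 and Derl3 are in capitals with 25 bases on each side, and Hsp90b1 holds 2. The motif is in reverse, beginning CGTGG and ending ATTGG, in Creld2, Derl3 and the second match of Hsp90b1.
Creld2 chr15:88819495-88819563, plus strand: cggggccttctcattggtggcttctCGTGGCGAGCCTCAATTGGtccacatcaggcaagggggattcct
Hsp90b1 chr10:86705508-86705681, minus strand: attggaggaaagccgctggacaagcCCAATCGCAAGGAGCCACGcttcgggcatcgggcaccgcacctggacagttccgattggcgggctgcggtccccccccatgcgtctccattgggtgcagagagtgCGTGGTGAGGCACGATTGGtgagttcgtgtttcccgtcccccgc
Pdia6 chr12:17266466-17266534, plus strand: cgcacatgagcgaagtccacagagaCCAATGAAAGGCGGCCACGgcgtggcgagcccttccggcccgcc
Derl3 chr10:75893217-75893285, plus strand: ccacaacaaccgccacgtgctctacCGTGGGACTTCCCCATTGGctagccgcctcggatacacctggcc

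Of 17 measured sensors and regulators 2 were higher and 2 were lower in females, where 8.25% of all named genes were higher and 5.38% lower. Eif2ak4, the amino acid sensing kinase GCN2, was higher by 0.31 ± 0.06 (SE) log2 (limma, adjusted p = 0.000973), and Creb3, a membrane-bound transcription factor, by 0.17 ± 0.05 (adjusted p = 0.0380). Creb3l3, a liver-enriched transcription factor of the endoplasmic reticulum membrane, was lower (-0.24 ± 0.05, adjusted p = 0.00246). Ppp1r15a, which encodes the phosphatase subunit GADD34 that reverses the translational block, was lower (-0.25 ± 0.06, adjusted p = 0.00819). Of 7 death-arm genes 2 were higher and 0 lower, Bcl2l11 (0.35 ± 0.09) and Pmaip1 (0.30 ± 0.07), both promoters of mitochondrial apoptosis. Pmaip1 read between 2.98 and 4.03 on all arrays and was not shown to lie above background. Of 6 reported targets of IRE1 decay 3 were higher and 0 lower. These were Pmp22 (0.38 ± 0.06), a membrane protein, Sparc (0.21 ± 0.06), a matrix glycoprotein, and Hgsnat (0.15 ± 0.05), a lysosomal enzyme whose second probe set gave -0.08. Of the 25 called genes followed under alternatives (all but Atf5 and Psph), 17 kept their call in each of 7 other settings (6 for Pmaip1, which the filter on dim probe sets removed) and in 23 fits that left out 1 array. Averaging the probe sets of a gene and the split by genotype were not part of that count. Creb3, Creld2, Derl3, Edem2, Sec63, Ssr4, Sparc and Hgsnat lost their call in at least 1 of these settings or fits. In the split by genotype 4 of the 17, Hsp90b1, Sec61b, Cebpg and Bcl2l11, passed in neither KO nor WT mice (limma, adjusted p from 0.0509 to 0.179). The rest of the 17 passed in at least 1 genotype.

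**Figure D4:**
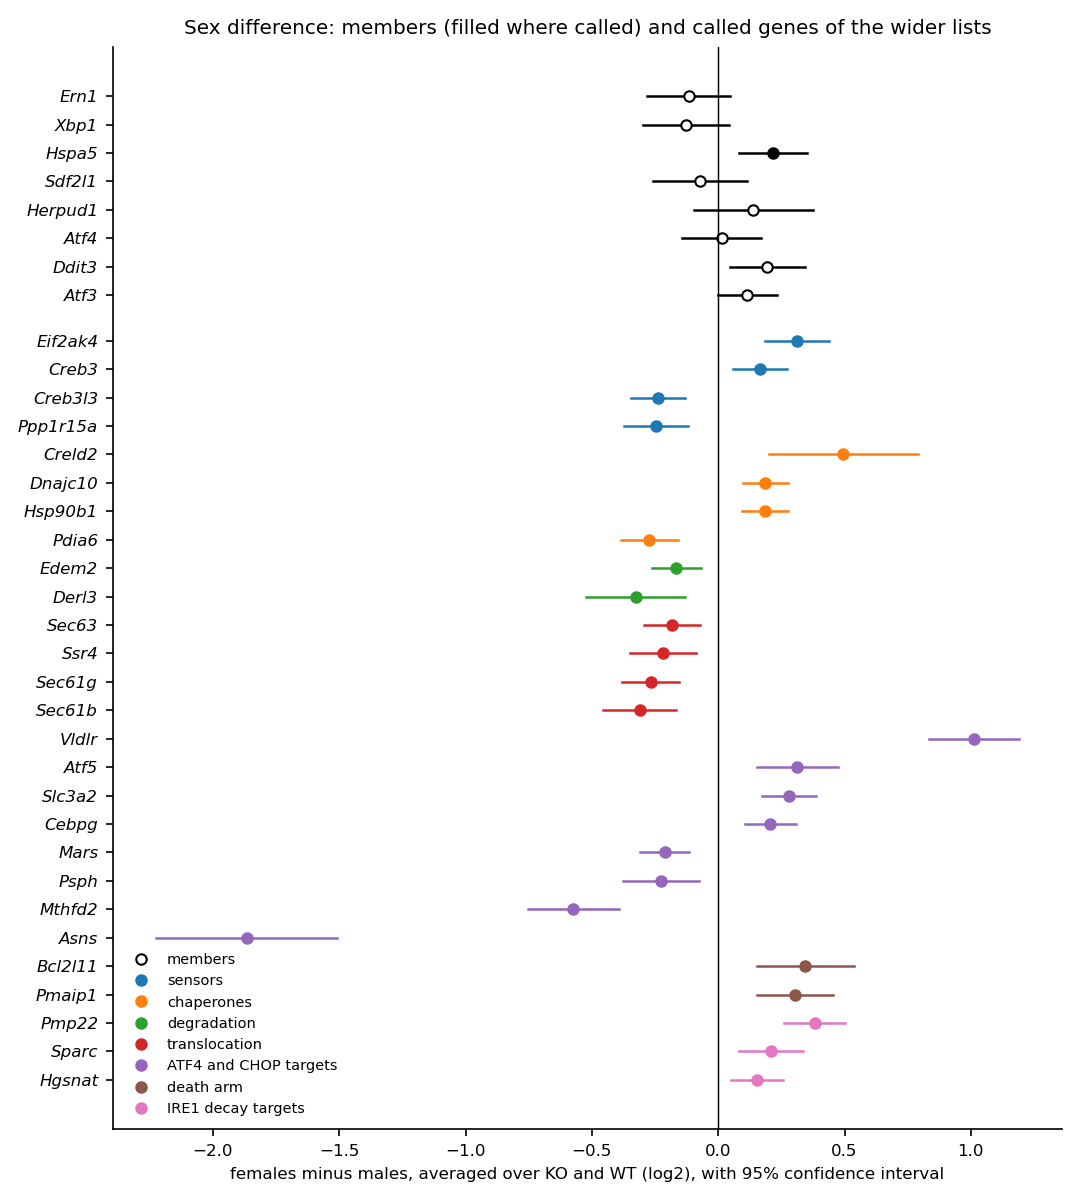
Females minus males in log2 intensity, averaged over KO and WT, with 95% confidence intervals from limma, for the 8 genes (filled where the adjusted p was under 0.05) and for the 27 genes of the wider lists that passed. Hspa5 lies at 0.22 as the only filled point of the 8, and the widest spread is among ATF4 and CHOP targets, from Asns at -1.87 to Vldlr at 1.01.

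Some markers of other liver cells differed between the sexes. All 5 Kupffer cell markers (Clec4f, Cd5l, Vsig4, Adgre1 and Marco) were higher in females by 0.27 to 0.83 log2 (limma). Their summed intensity ranged from 3723 to 4848 in female KO, 3575 to 4304 in female WT, 2567 to 3508 in male KO and 2591 to 3358 in male WT livers, with no overlap between the sexes. Of 5 markers each of sinusoidal endothelium and of stellate cells 2 were higher, and 1 stellate marker stood at -0.29 and did not pass. All 5 endothelial (0.11 to 0.23), 4 of 5 stellate and all 4 measured T and NK cell differences were positive, beside 46.4% of all named genes. Summed endothelial intensity ranged from 2190 to 2484 in female WT and 1815 to 2058 in male WT livers. In KO livers the sums overlapped (2002 to 2427 in females, 1853 to 2077 in males). Of 4 measured T and NK cell markers 2 were higher, of 5 measured B and plasma cell markers 1 was higher, and of 5 cholangiocyte markers 1 was lower. All these counts stand beside 8.25% of all named genes higher and 5.38% lower in females. With so few markers, 1 or 2 calls do not show a shift of a cell type. None of 3 measured hepatocyte markers of 6 passed, and their sum lay between 35065 and 42115 on all arrays. Their part in the sex differences of Hspa5 and of the wider lists was not tested.

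Within groups, Hspa5 varied together with Sdf2l1. Over 23 mice centred on their group means Pearson's r was 0.63 and Spearman's rho 0.64 (permutation within groups, two-sided, p = 0.00705 and 0.00577, adjusted over 7 relations 0.0493 and 0.0404). It was 0.65 in the 12 females and 0.64 in the 11 males. Without the 2 arrays farthest from the median of Hspa5 r was 0.55 and no longer passed (adjusted permutation p = 0.146). Nor did it pass with quantile normalization (r = 0.60, adjusted permutation p = 0.0652). The main call lay close to the threshold, and why it was lost was not tested. The other 6 genes did not pass, with r of 0.43 for Atf3, 0.39 for Herpud1, 0.34 for Xbp1, 0.22 for Atf4, 0.21 for Ddit3 and 0.06 for Ern1. All points of a group share its mean, and the RNA quality of the single samples is not given.

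The named genes outside the 8 whose group-centred values were most like those of Hspa5 over the 23 mice were Creld2 (r = 0.85), Tmed3 (0.80), Ostc (0.78), Srp68 (0.74) and Nme6 (0.74). Tmed3 encodes a cargo receptor between the endoplasmic reticulum and the Golgi, Ostc a subunit of the oligosaccharyltransferase, Srp68 a subunit of the signal recognition particle and Nme6 a member of the nucleoside diphosphate kinase family. They were picked as the highest of all named genes, so their r is a description and carries no test. A probe set without a single symbol had a higher r with Hspa5 (0.92) than any of them. Creld2, Tmed3, Ostc and Nme6 were also higher in females by 0.50, 0.28, 0.23 and 0.28 log2 (limma, adjusted p = 0.0250, 0.0390, 0.0306 and 0.0242), and Srp68 by 0.08, which did not pass. Of all named genes 8.25% were higher in females.

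**Figure D5:**
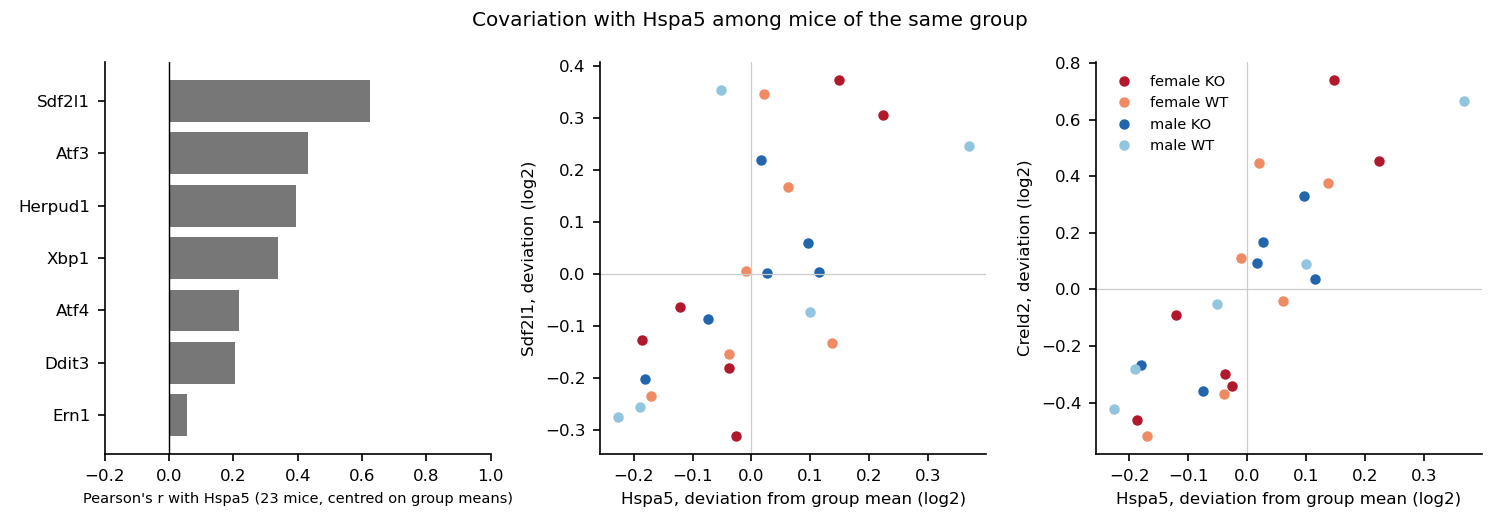
Left, Pearson's r of each measured gene with Hspa5 over 23 mice after centring on group means. Middle and right, deviation from the group mean in log2 of Sdf2l1 (r = 0.63) and Creld2 (r = 0.85) against that of Hspa5, with 1 point for each mouse coloured by group; the male WT mouse farthest to the right is high in all 3 genes.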

How the data were processed

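Whole-liver RNA of 23 mice was amplified to biotin-labelled cRNA and hybridised to 1 array for each mouse, per the labels' protocols. The authors deposited an intensity on a linear scale for each of 38385 probe sets. Per the submitters' processing notes RMA was used, and no source used here states its version or settings. Values were turned into log2 with no further scaling. Probe sets were named from the repository's platform annotation, where 24478 had 1 symbol. Groups came from the sample titles.

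For each probe set a linear model with 1 mean for each group was fitted to all arrays by lmFit and eBayes of limma 3.58.1 under R 4.3.3, which left 19 residual degrees of freedom beside 7.61 from the prior. The 5 contrasts set KO against WT within each sex and as a mean of both, compared these effects, and set females against males with equal weight on KO and WT. All probe sets entered the Benjamini-Hochberg adjustment, with 0.05 as the threshold. Errors are SDs beside group means and standard errors beside differences. The procedure was tested on simulated data. Correlations with Hspa5 used 1e+05 permutations within groups. Trib3 and Dnajb9, without a probe set, dropped out of that test and of the search for like genes. Promoters are RefSeq's of GRCm38.p6 (250 bases before to 50 after the start); all 10 genes matched, as did 99 of the 130 genes of the wider lists. The number of arrays limits the precision, and no batch is given.

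Members and lists were chosen with earlier results of these data known. Named were the 8 measured members, P2ry13, Ppm1l, up to 6 passing genes of each list and comparison by smallest p, or the 1 or 2 with the smallest p where none passed (only some of the latter are printed), and the 5 genes most like Hspa5. The alternatives were quantile normalization, equal array medians, a filter on dim probe sets, array weights, an intensity trend, a replicate block, plain analysis of variance, only the compared groups, averaging all probe sets of a member and leaving out each array. The split of the sex difference by genotype and the list of genes with the stress element were added after the data were seen. Plots came from matplotlib 3.10.9 (Python 3.11.15).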

Additional observations from a re-analysis of the deposited data

How the results depend on the processing

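No member passed in a knockout comparison under any alternative that was run. Of 1196 values of members that did not pass, 37 changed sign under an alternative and 2 passed. The number of members that differed between the sexes was 0 with quantile normalization and ranged from 0 to 2 when 1 array was left out. Hspa5 lost its call in 1 of 7 other settings and, among the leave-outs, without female KO replicate 1 or 4, male KO replicate 1 or 5, female WT replicate 5 or male WT replicate 2, 3 or 5 (0.19 to 0.21 log2, adjusted p in limma from 0.0509 to 0.0682). Over all 23 leave-outs its difference ranged from 0.19 to 0.26 log2 (adjusted p from 0.00374 to 0.0682). A plain analysis of variance called 7 probe sets in KO minus WT females, 3 in males and 2 in the difference of effects, P2ry13 itself did not pass there in males (adjusted p = 0.187), and the cause was not tested. With 1 array left out, 9 to 21 probe sets passed in KO minus WT males. The count of genes correlated with Hspa5 was 0 without the 2 farthest arrays and 0 with quantile normalization, and r of Ern1 turned to -0.023 in the first of these. Signs turned in values near 0: with quantile normalization the difference of knockout effects of Sdf2l1 (-0.010) and the sex difference of Atf4 (-0.0067); with array weights Sdf2l1 in KO minus WT females (0.015), the difference of effects of Herpud1 (0.0032) and the sex difference of Atf4 (-0.040); with the mean of its probe sets Ern1 in KO minus WT females (-0.035). Within genotypes the sex difference was -0.048 for Atf4 in KO and 0.034 for Xbp1 in WT mice. With 1 array left out, values ranged from -0.0020 to 0.042 for Atf3 in the average knockout effect. Atf4 ranged from -0.027 to 0.057 in the average, -0.098 to 0.00094 in females, -0.011 to 0.16 in males and -0.025 to 0.059 between the sexes. In KO minus WT females Ddit3 ranged from -0.094 to 0.032, Ern1 from -0.015 to 0.12 and Sdf2l1 from -0.13 to 0.018, and in males Sdf2l1 ranged from -0.14 to 0.020. In the difference of effects Herpud1 ranged from -0.27 to 0.0037 and Sdf2l1 from -0.072 to 0.086. Same-numbered KO and WT arrays did not deviate together (r from -0.07 to 0.15 in females and -0.12 to 0.03 in males). Such correlations cannot show whether the numbers pair the mice by litter, cage or day. With the replicate block the sex difference of Hspa5 was 0.22 (limma, adjusted p = 0.0346) and 1 member passed. The files give no detection call, which limits what low probe sets such as Ern1 and Atf3 can show.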

Other observations

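The promoters of 37 genes hold the endoplasmic reticulum stress element, Hspa5 and 9 genes of the wider lists among them, and 22 of the 37 had a probe set. Between the sexes 4 were higher and 2 lower in females (27.3%, beside the 13.6% of all named genes), and the median difference was 0.03 log2. As with the wider lists, the shares were not matched for intensity. The calls, named after their values were seen, were Hspa5, Creld2, Hsp90b1 and Acnat2 as higher and Pdia6 and Derl3 as lower. All but Acnat2 are calls already given above, so this share is no separate count. Acnat2, a gene of the acyl-CoA amino acid N-acyltransferase family, was higher in females by 3.16 log2 (adjusted p = 4.05e-14), and its KO minus WT differences of 0.54 in females and 0.43 in males did not pass (adjusted p = 0.836 and 0.825).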
